A study of Mus musculus with 3 samples.

Results

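The 9 genes described here act in the uptake, storage and oxidation of fatty acids: Cpt1a, Cpt2, Fabp5, Plin2, Acadl, Acadvl, Hadha, Hadhb and Ucp2. They are a set given by name, and all 9 were found by symbol among the 56980 genes of the feature lists. Spleens were ground to cell suspensions and profiled with a droplet assay that reads the RNA of single cells, in 3 libraries of 1 per group. No difference given here is therefore backed by replicates, and none was tested. IR_HSO came from wild-type mice that received 8.5 Gy and then HSO, which is hemp seed oil by the series title. IR came from wild-type mice that received 8.5 Gy and a "colvent control", taken here to be the vehicle although the word is unclear. The control library came from wild-type mice that were not irradiated. The labels used here give no number of mice per library, no age or sex, no interval between irradiation and sampling, and no dose or schedule of HSO.

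Unique molecular identifiers (UMIs), which count captured RNA molecules, were summed over cells sorted by their own transcripts. The cells had at least 500 UMIs and under 10% mitochondrial UMIs, which left 10608 of 12710 barcodes in IR_HSO, 12866 of 13509 in IR and 9163 of 9520 in control. T cells had at least 2 UMIs of the CD3 genes Cd3d, Cd3e and Cd3g. They were split into Foxp3 T cells (any UMI of Foxp3, which marks regulatory T cells), CD4 T cells, CD8 T cells and other T cells, which had no UMI of these genes or both CD4 and CD8. NK cells had a UMI of Ncr1 and none of CD3, and plasma cells had at least 10 UMIs of Jchain. This gave 6905 T cells in IR_HSO, 8110 in IR and 3718 in control, with 28774544, 33882233 and 22478960 UMIs. Foxp3 T cells were 1530, 851 and 244, or 22.2%, 10.5% and 6.56% of T cells. NK cells were 1035, 1510 and 336, and plasma cells 298, 249 and 58. Levels are UMIs per 1000000 UMIs of the same cells (CPM), and brackets hold exact 95% intervals that cover counting error only and are too narrow where a few cells carry a gene. Because CPM is relative, more RNA of a gene and less RNA of other genes cannot be told apart.

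The gates carried the markers of their names. The NK list holds Ncr1 and the plasma cell list Jchain, which define these gates. Part of each sum is thus set by the gate itself. A list of 7 NK markers summed to 10836, 14793 and 13904 CPM in the NK cells of IR_HSO, IR and control, against 761, 1127 and 213 CPM in their T cells. The 7 plasma cell markers summed to 34752, 43451 and 34537 CPM in plasma cells and to 210, 204 and 64.8 CPM in T cells. RNA of other cells differed between libraries as well: in T cells the 7 B cell markers summed to 49.97, 73.3 and 964 CPM, and 8 pancreatic acinar markers to 653, 1761 and 2.31 CPM, with 6 of the 8 at 0 in control. The 5 erythroid markers summed to 0.904, 0.974 and 374 CPM in T cells. The 5 neutrophil markers summed to 778, 2.56 and 235 CPM in Foxp3 T cells. NK cells held more of such RNA, with acinar markers at 5882, 3451 and 3.22 CPM. Their erythroid markers summed to 1.16, 1.87 and 2883 CPM and their B cell markers to 81.4, 116 and 1803 CPM. The part of such RNA in the results was not tested. Of the 189 ratios of the 9 genes between libraries, none left its counting interval without cells of 20 or more UMIs of an acinar, neutrophil, erythroid, macrophage or stromal list, which were 33, 49 and 20 T cells. A second lineage was read from at least 2 UMIs of Lyz2, of Hbb-bs or of Cd79a and Cd79b together. In T cells any Ncr1 UMI counted as well, and in plasma cells only Lyz2 and Hbb-bs did. Acinar, neutrophil and stromal transcripts were not part of this filter. Without the cells it marked, 13 of the 189 left their intervals, all of Fabp5 or Ucp2 against control. RNA spread thinly over many cells was not tested. T cells had median depths of 3541, 3565.5 and 5475 UMIs. The libraries shared few barcodes, 54 between IR_HSO and IR, 34 between IR_HSO and control and 44 between IR and control.

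Fatty acids enter cells through membrane carriers and are held in the cytoplasm by binding proteins, of which Fabp5 is the lymphocyte and skin form. Surplus fatty acid is stored as triglyceride in lipid droplets, whose surface is coated by perilipins such as Plin2. To be burned, a long-chain fatty acid is joined to carnitine by Cpt1a on the outer mitochondrial membrane, moved inward, and released again by Cpt2 on the inner membrane. Acadvl and Acadl, the very-long-chain and long-chain acyl-CoA dehydrogenases, then begin each round of beta-oxidation, and the trifunctional protein, built from Hadha and Hadhb subunits, completes it. Ucp2 is a carrier of the inner mitochondrial membrane tied to fuel choice and oxidant release. In immune cells, regulatory and memory T cells are known to draw on fatty acid oxidation, while dividing effector T cells lean on glucose.

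In T cells Cpt1a had the largest ratio of the 9 genes between each irradiated library and control. A gene was counted as changed when it was at least 1.5-fold apart, with at least 5 CPM in either library and 10 UMIs in both together. In IR against control, 2 of the 9 genes were higher (Cpt1a and Cpt2) and 0 lower, where 12.2% of 10378 measured genes were higher and 3.99% lower. All 9 ratios were above 1, with a median log2 ratio of 0.44, against 0.14 for all genes. In IR_HSO against IR, 0 were higher and 1 (Plin2) was lower, where 7.71% of 10542 genes were higher and 5.38% lower. The median log2 ratio was 0.01, against 0.04 for all genes. In IR_HSO against control, 3 were higher (Cpt1a, Cpt2 and Hadhb) and 0 lower, where 20.1% of 10599 genes were higher and 6.41% lower, with medians of 0.34 for the 9 genes and 0.18 for all genes. Relative to the all-gene medians, Cpt1a alone of the 9 stayed past 1.5-fold against control, at 1.80 in IR_HSO and 1.74 in IR. The 3 comparisons share libraries, so they are given side by side and are not independent of each other.

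**Figure D1:**
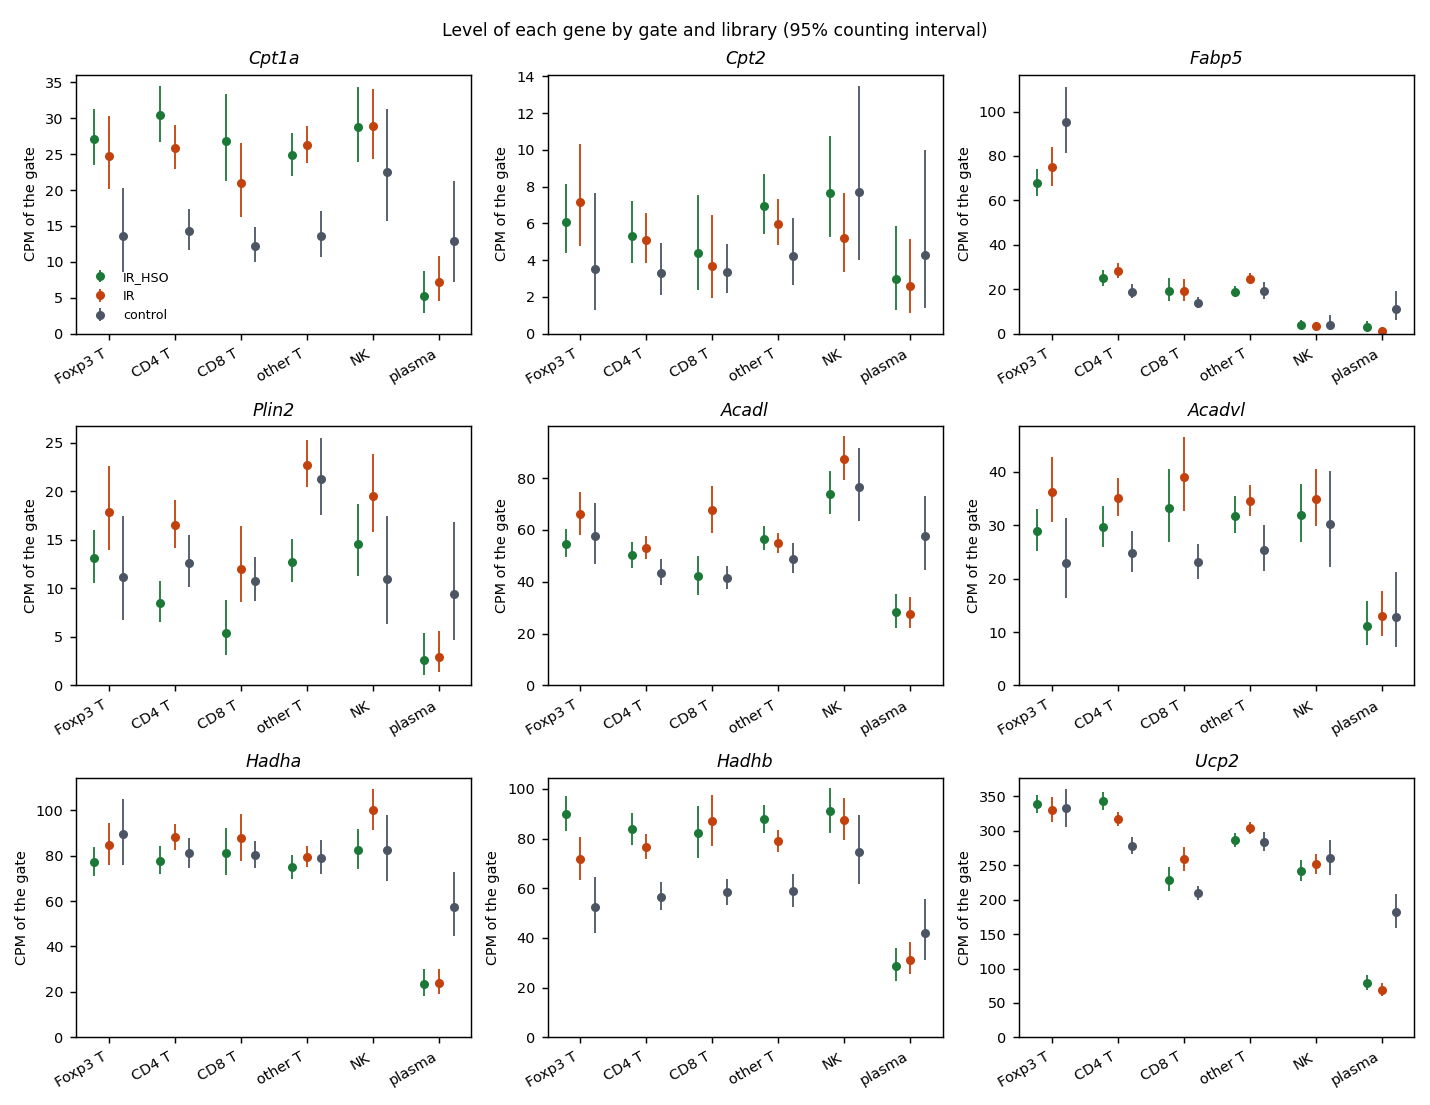
Level of each gene in CPM (vertical axes, from 0) in Foxp3, CD4, CD8 and other T cells, NK cells and plasma cells, with IR_HSO, IR and control from left to right within each gate; points are sums over all cells of a gate and bars 95% counting intervals. Cpt1a and Hadhb are lowest in control in all 4 T cell subsets, Plin2 is lower in IR_HSO than in IR in every gate, and Fabp5 is highest in Foxp3 T cells in all 3 libraries.

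Cpt1a (ENSMUSG00000024900), which makes the acyl-carnitine that enters mitochondria and is the rate-setting step of the pathway, was higher in T cells of both irradiated libraries than in control, by less when cells were thinned to equal depth. Its level was 27.1 CPM in IR_HSO, 25.5 CPM in IR and 13.3 CPM in control, from 781, 863 and 299 UMIs. The ratio was 1.91 [1.68, 2.19] for IR against control, 2.04 [1.78, 2.34] for IR_HSO against control and 1.07 [0.966, 1.18] for IR_HSO against IR. Both irradiated libraries thus lay above control and close to each other. At equal depth, with each cell thinned to 1000 UMIs, the ratios to control were 1.43 in IR and 1.42 in IR_HSO, short of 1.5-fold. Of the 14 other settings, 13 stayed past 1.5-fold in each of these comparisons. Thinned ratios rest on fewer UMIs and have no interval here, so depth and loss of counts were not told apart. The difference was spread over the subsets: IR against control gave 1.83 [1.15, 3.03] in Foxp3 T cells, 1.81 [1.44, 2.30] in CD4, 1.71 [1.24, 2.35] in CD8 and 1.94 [1.51, 2.52] in other T cells. For IR_HSO against control the 4 subsets ranged from 1.83 to 2.19, with all intervals above 1. With the T cell subsets of each library weighted as in control, the ratios for all T cells were 1.81 for IR against control and 2.06 for IR_HSO against control. NK cells already held 22.5 CPM [15.7, 31.3] in control, with 28.8 CPM in IR_HSO and 28.9 CPM in IR, so the IR to control ratio there was 1.28 [0.880, 1.92]. In control NK cells were the highest gate, ahead of CD4 T cells at 14.3 CPM by more than counting error, while in the irradiated libraries NK cells and the 4 T cell subsets were not apart from their neighbours in counting error. Thinning every cell to 1000 UMIs left only 8, 4 and 25 Cpt1a UMIs in the CD8 T cells of IR_HSO, IR and control, and there the direction against control turned.

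Cpt2 (ENSMUSG00000028607), which frees the fatty acid on the inner side of the membrane, was a low-count gene. It stood at 6.01 CPM in T cells of IR_HSO, 5.61 CPM in IR and 3.56 CPM in control, from 173, 190 and 80 UMIs. The ratios were 1.58 [1.21, 2.07] for IR against control, 1.69 [1.29, 2.23] for IR_HSO against control and 1.07 [0.867, 1.32] for IR_HSO against IR. Within single subsets the IR to control ratio ran from 1.10 to 2.03, with no interval apart from 1. Measured against the shift of all genes, the IR to control ratio of Cpt2 was 1.43 and no longer past 1.5-fold, while that of Cpt1a was 1.74. The ratio of Cpt1a to Cpt2 UMIs in IR was 1.22 [0.894, 1.64] times that in control, an interval that includes 1. At equal depth, as for Cpt1a, the ratio of Cpt2 to control was 2.92 in IR_HSO and 2.17 in IR. These values rest on still fewer UMIs of a low-count gene, have no interval here and are not firmer than the unthinned ratios.

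The RefSeq promoter table (GRCm38.p6) holds windows of 250 bases before and 50 after the start of 8 of the 9 genes. The window of Cpt1a is shown because this gene had the largest ratio of the 9 between irradiated and control T cells. It lies at chr19:3323051-3323350 on the plus strand, with capitals on matches to AGGTCA (a core letter group of nuclear receptor elements) and GGGCGG (a GC box) on either strand.
Cpt1a: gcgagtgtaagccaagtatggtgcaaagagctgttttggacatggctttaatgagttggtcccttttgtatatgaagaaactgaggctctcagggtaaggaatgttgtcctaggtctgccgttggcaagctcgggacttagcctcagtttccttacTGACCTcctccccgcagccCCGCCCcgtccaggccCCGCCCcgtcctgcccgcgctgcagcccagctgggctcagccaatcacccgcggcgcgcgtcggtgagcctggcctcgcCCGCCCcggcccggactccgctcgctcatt
AGGTCA matched 1 time and GGGCGG 3 times in the Cpt1a window, and 2 copies of AGGTCA spaced by 1 base, the PPAR-type repeat, in 0 of the 8 windows. Over all 32851 windows of the table, 16.3% held AGGTCA, 35.7% held GGGCGG, 7.15% held the E-box CACGTG and 0.0396% held the spaced repeat, with both strands searched. Of the 8 windows, 3 held AGGTCA (Cpt1a, Plin2 and Acadvl), 7 held GGGCGG and 1 held CACGTG. A match describes letters and is not a binding site shown here.

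Plin2 (ENSMUSG00000028494), the lipid droplet coat protein, was the one gene of the 9 past 1.5-fold between IR_HSO and IR over all T cells. In T cells it stood at 10.9 CPM [9.74, 12.2] in IR_HSO, 19.1 CPM [17.7, 20.7] in IR and 13.9 CPM [12.4, 15.6] in control. IR_HSO was thus the lowest and IR the highest of the libraries, with no overlap of the intervals. IR_HSO against IR gave a ratio of 0.571 [0.497, 0.654], or 1.75-fold lower. The ratio was below 1 in all 6 gates, at 0.732 [0.532, 1.01] in Foxp3 T cells, 0.515 [0.383, 0.685] in CD4, 0.451 [0.235, 0.826] in CD8, 0.560 [0.456, 0.684] in other T cells, 0.748 [0.535, 1.04] in NK cells and 0.888 [0.281, 2.68] in plasma cells. The interval left out 1 in 3 of these, the CD4, CD8 and other T cells. Over the 14 other settings tried for all T cells the ratio of IR_HSO to IR stayed between 0.531 and 0.599.

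IR against control gave 1.37 [1.20, 1.58] for Plin2 in all T cells, but 1.18 with subsets weighted as in control and 0.990 at equal depth. The other T cells, which had the highest Plin2 level in both IR (22.8 CPM) and control (21.2 CPM), were 51.1% of T cells in IR and 26.9% in control. Within them the IR to control ratio was 1.07 [0.867, 1.33], and among T cell subsets only the CD4 interval, 1.31 [1.01, 1.71], left out 1. IR_HSO against control was 0.784 [0.668, 0.919] in all T cells and 0.627 with subsets weighted as in control. The share of T cells with a Plin2 UMI was 4.14% in IR_HSO, 6.83% in IR and 7.15% in control, and 1.03% [0.802, 1.30], 1.70% [1.43, 2.01] and 1.62% [1.24, 2.08] after thinning. No T cell had more than 6 Plin2 UMIs, so the level did not rest on single cells.

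The Plin2 window is shown because it is the 1 window of the 8 with an E-box, beside a GC box and an AGGTCA. It lies at chr4:86670010-86670309 on the minus strand (GRCm38.p6), with capitals on AGGTCA, on the E-box CACGTG and on the GC box GGGCGG, on either strand.
Plin2: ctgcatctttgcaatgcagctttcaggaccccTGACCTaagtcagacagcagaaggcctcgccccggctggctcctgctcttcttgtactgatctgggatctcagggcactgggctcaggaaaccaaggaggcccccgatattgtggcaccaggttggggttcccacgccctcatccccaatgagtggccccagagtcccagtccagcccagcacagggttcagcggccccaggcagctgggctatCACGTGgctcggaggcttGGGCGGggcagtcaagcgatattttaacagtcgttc

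**Figure D2:**
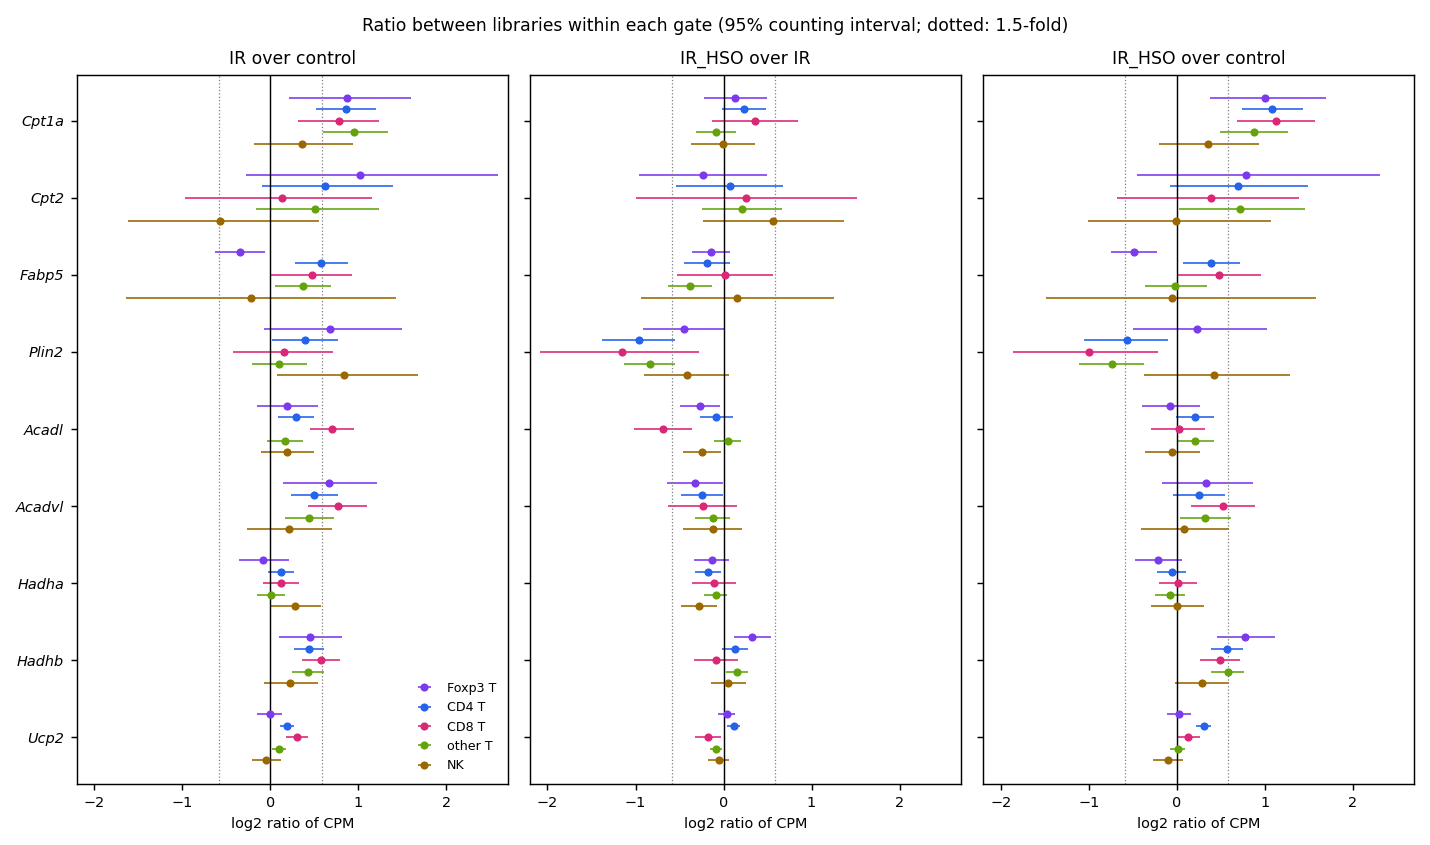
Ratio between libraries for each gene (rows) on a log2 axis, for IR over control, IR_HSO over IR and IR_HSO over control, with 1 point per gate for the 4 T cell subsets and NK cells; bars are 95% counting intervals and dotted lines mark 1.5-fold. In IR over control the Cpt1a points of the 4 T cell subsets lie right of 0, and in IR_HSO over IR the Plin2 points lie left of 0.

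Fabp5 (ENSMUSG00000027533), the cytoplasmic fatty acid binding protein, was highest in Foxp3 T cells among the T, NK and plasma cell gates. Over all T cells it was higher in dividing than in other cells. In Foxp3 T cells it stood at 67.8 CPM [62.0, 74.1] in IR_HSO, 74.9 CPM [66.6, 84.0] in IR and 95.3 CPM [81.2, 111] in control. CD4 T cells held 24.8, 28.3 and 18.9 CPM, and NK cells held 3.71, 3.32 and 3.86 CPM. Foxp3 T cells thus exceeded CD4 T cells by 2.73-fold [2.31, 3.24] in IR_HSO, 2.65-fold [2.25, 3.12] in IR and 5.04-fold [3.98, 6.39] in control. The share of Foxp3 T cells with a Fabp5 UMI was 17.9%, 19.6% and 14.8%, at median depths of 3745.5, 3653 and 5484 UMIs. In NK cells, taken as the background, it was 1.26%, 0.993% and 0.298% at 3681, 2883.5 and 4101 UMIs. After thinning, the Foxp3 T cell shares were 5.04%, 5.98% and 3.29%, and those of NK cells 0.306%, 0.222% and 0 of 329 cells, where a count of 0 leaves room for 0.912%. The control shares run against the control CPM, so no order between libraries is read from them.

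The Fabp5 UMIs of control came from few cells. Of 162 UMIs in control Foxp3 T cells, 1 cell held 32, and all came from 36 of 244 cells. Summed UMIs put Fabp5 lower in the Foxp3 T cells of IR than of control, at 0.786 [0.647, 0.959], and lower in IR_HSO than in control, at 0.712 [0.595, 0.856]. With each cell weighted alike the IR to control ratio was 1.33, without cycling cells 1.24, and after thinning 2.07, and for IR_HSO against control these were 1.08, 1.05 and 1.64, so the direction in Foxp3 T cells depended on how cells were weighted. In CD4 T cells IR was higher than control at 1.496 [1.22, 1.85], in CD8 T cells the ratio was 1.38 [0.999, 1.90], and in other T cells it was 1.29 [1.04, 1.62]. These too depended on the setting: with a T cell gate of at least 1 CD3 UMI the ratio in other T cells turned to 0.601, and after thinning that in CD4 T cells was 3.27.

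Across all T cells Fabp5 stood at 32.9 CPM in IR_HSO, 31.0 CPM in IR and 22.8 CPM in control, and the mix of subsets moved with it. The ratio of IR_HSO to IR was 1.06 [0.969, 1.16] as measured, 0.853 with the subsets weighted as in IR and 0.894 with the subsets weighted as in control. Within subsets it was 0.906 in Foxp3, 0.878 in CD4, 1.01 in CD8 and 0.767 [0.644, 0.912] in other T cells, of which the last interval left out 1. Foxp3 T cells supplied 52.0% of T cell Fabp5 UMIs in IR_HSO, 27.9% in IR and 31.6% in control, while they held 25.2%, 11.5% and 7.57% of all T cell UMIs. IR_HSO against control was 1.44 [1.29, 1.61] as measured and 1.08 with subsets weighted as in control. IR against control was 1.36 [1.22, 1.51], with 1.04 under the gate of 1 CD3 UMI, 1.74 without cells of a second lineage and 2.11 after thinning. A close paralog, Fabp5l2, had 5, 0 and 1 UMIs in T cells, and how the authors' counting treated reads shared by Fabp5 copies is not known here.

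**Figure D3:**
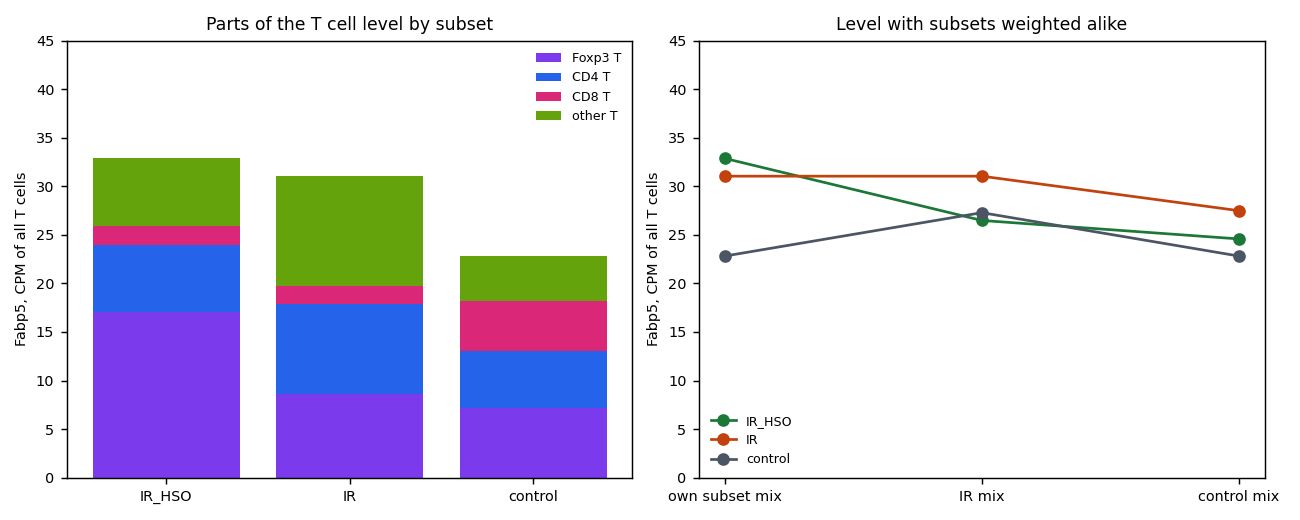
Fabp5 in all T cells, in CPM from 0; bars (left) stack the parts that Foxp3, CD4, CD8 and other T cells contribute in IR_HSO, IR and control, and lines (right) show the same level as measured and with subsets weighted as in IR or as in control. IR_HSO is the highest at 32.9 CPM with its own mix and lies below IR, at 24.6 against 27.5 CPM, with the control mix.

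Cells with a UMI of Mki67 or Top2a, genes of dividing cells, were 711 of 6905 T cells in IR_HSO, 1090 of 8110 in IR and 329 of 3718 in control. In them Fabp5 stood at 55.1 CPM in IR_HSO, 46.3 CPM in IR and 76.1 CPM in control, against 28.9, 27.2 and 14.5 CPM in the other T cells. The ratio of cycling to other T cells was 1.90 [1.64, 2.21] in IR_HSO, 1.71 [1.49, 1.95] in IR and 5.24 [4.39, 6.26] in control. In cycling T cells IR was lower than control, at 0.609 [0.512, 0.724], and in the other T cells it was higher, at 1.87 [1.63, 2.16]. Likewise IR_HSO against control was 0.724 [0.602, 0.871] in cycling and 1.99 [1.73, 2.30] in other T cells. None of these ratios was weighted for the mix of T cell subsets, and its part in them was not tested. In control 45.03% of T cell Fabp5 UMIs came from the 329 cycling cells. The control ratio was 5.50 [4.34, 6.96] after leaving out T cells with transcripts of a second lineage. Cycling cells were deeper, with median depths of 4894, 5377 and 6643 UMIs, against 3452.5, 3407 and 5394 UMIs in other T cells. Within Foxp3 T cells the cycling to other ratio was 1.65 [1.34, 2.03] in IR_HSO and 1.19 [0.905, 1.55] in IR, where the interval included 1. In cycling Foxp3 T cells IR against control was 0.464 [0.338, 0.635] and IR_HSO against control 0.544 [0.414, 0.717]. In Foxp3 T cells that were not cycling these were 1.24 [0.945, 1.66] and 1.05 [0.810, 1.38], and both intervals included 1. The cycling Foxp3 T cells were 196 in IR_HSO, 126 in IR and only 46 in control. Few control Foxp3 T cells carried the Fabp5 UMIs, as given above, so these intervals against control are too narrow.

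Other genes of the set had smaller ratios with division. Acadl was 1.247-fold [1.09, 1.42] higher in cycling than in other T cells of IR_HSO, 1.39-fold [1.26, 1.54] in IR and 1.496-fold [1.27, 1.75] in control. Ucp2 was 1.39-fold [1.30, 1.49] higher in cycling T cells of control, with ratios of 1.02 [0.960, 1.08] in IR_HSO and 1.05 [0.9997, 1.10] in IR. Hadha was 1.15-fold [1.02, 1.28] higher in cycling T cells of IR_HSO and 1.24-fold [1.09, 1.40] in control, with 1.09 [0.998, 1.19] in IR. Without T cells that carried transcripts of a second lineage, the control ratios were 1.22 [0.966, 1.53] for Acadl and 1.10 [0.925, 1.31] for Hadha, and both intervals then included 1. Hadhb was the only gene of the 9 with an interval below 1, at 0.874 [0.777, 0.981] in IR_HSO. Cpt1a, Cpt2, Plin2 and Acadvl had intervals that included 1 in all 3 libraries. Among T cells that were not cycling, IR against control gave 1.83 [1.58, 2.12] for Cpt1a.

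**Figure D4:**
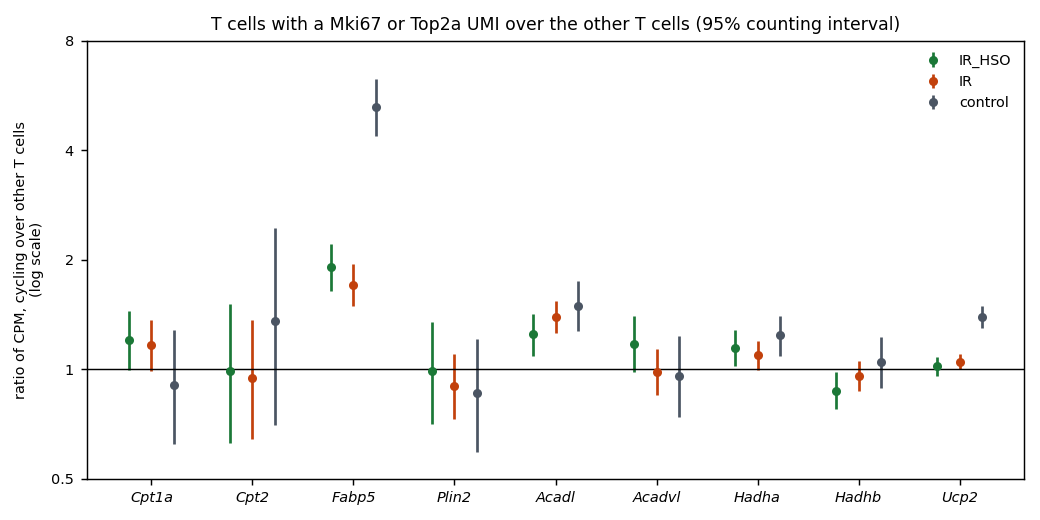
Ratio of CPM in T cells with a Mki67 or Top2a UMI over the other T cells, on a log axis, for each gene in IR_HSO, IR and control; bars are 95% counting intervals. Fabp5 lies above 1 in all 3 libraries and is highest in control, at 5.24.

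Acadvl (ENSMUSG00000018574) and Acadl (ENSMUSG00000026003) are the enzymes that open each oxidation round on long acyl chains. Over all T cells both were moderately higher in IR than in control and lower again in IR_HSO, for Acadl by little and not in every subset. In T cells Acadvl stood at 30.7 CPM in IR_HSO, 35.4 CPM in IR and 24.2 CPM in control. Its ratio was 1.46 [1.32, 1.62] for IR against control, 0.865 [0.793, 0.945] for IR_HSO against IR and 1.27 [1.14, 1.41] for IR_HSO against control. The IR to control ratio of Acadvl lay above 1 with its interval in each of the 4 T cell subsets, from 1.36 in other T cells to 1.70 [1.35, 2.14] in CD8 T cells. The IR_HSO to IR ratio was below 1 in all 6 gates, from 0.798 to 0.920, with an interval below 1 in Foxp3 and CD4 T cells.

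Acadl stood at 52.9 CPM in IR_HSO, 56.8 CPM in IR and 45.1 CPM in control T cells. The IR to control ratio was 1.26 [1.17, 1.36], the IR_HSO to IR ratio 0.931 [0.870, 0.997] and the IR_HSO to control ratio 1.17 [1.08, 1.27]. Its largest subset ratio between IR and control was in CD8 T cells, which held 42.0 CPM [35.0, 50.1] in IR_HSO, 67.5 CPM [58.9, 77.1] in IR and 41.4 CPM [37.2, 46.0] in control. IR thus stood apart from both other libraries there, at 1.63-fold [1.37, 1.94] over control, while IR_HSO against IR was 0.623 [0.495, 0.780] and IR_HSO against control 1.01 [0.820, 1.249]. In the other 3 subsets the IR to control ratio was 1.12 to 1.22, and the difference between subsets was not tested. The IR_HSO to IR ratio was below 1 in 3 of the 4 subsets, with its interval in 2, and was 1.03 in other T cells. It was 0.970 [0.898, 1.05] in T cells that were not cycling and 0.867 [0.746, 1.01] in cycling ones, and both intervals included 1. NK cells held the highest Acadl level of the 6 gates in each library, at 74.0, 87.5 and 76.6 CPM, apart from the next gate each time.

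Hadha (ENSMUSG00000025745) and Hadhb (ENSMUSG00000059447) encode the alpha and beta subunits of the trifunctional protein, which are held in 1 complex. In T cells Hadhb stood at 86.6 CPM in IR_HSO, 78.2 CPM in IR and 57.4 CPM in control. Hadha stood at 76.9, 83.7 and 80.9 CPM, and its libraries lay close together. The Hadhb ratio was 1.36 [1.27, 1.46] for IR against control, 1.51 [1.41, 1.61] for IR_HSO against control and 1.11 [1.05, 1.17] for IR_HSO against IR. For Hadha these ratios were 1.03 [0.975, 1.10], 0.950 [0.893, 1.01] and 0.919 [0.869, 0.972]. Relative to the shift of all genes the IR to control log2 ratio of Hadha was -0.09, against 0.05 before, and so changed sign, and the IR_HSO to control ratio of Hadhb was 1.33 and no longer past 1.5-fold.

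The ratio of the 2 genes within the same cells does not depend on the scaling. Hadhb made up 53.0% [51.5, 54.4] of the UMIs of both genes in T cells of IR_HSO, 48.3% [47.0, 49.6] in IR and 41.5% [39.8, 43.3] in control. The Hadhb to Hadha ratio was higher by 1.32-fold [1.20, 1.44] in IR than in control, 1.59-fold [1.45, 1.74] higher in IR_HSO than in control and 1.21-fold [1.11, 1.30] higher in IR_HSO than in IR. IR against control was above 1 with its interval in all 4 T cell subsets, at 1.44 in Foxp3, 1.247 in CD4, 1.37 in CD8 and 1.34 in other T cells. The Foxp3 T cells showed the widest span, with shares of 53.8%, 45.8% and 36.9%. CD8 T cells showed none between the irradiated libraries, at 50.2% and 49.8% and a ratio of 1.02 [0.791, 1.30]. In NK cells IR was not apart from control, at 0.964 [0.719, 1.29], and IR_HSO was higher than IR, at 1.26 [1.03, 1.54]. Whether NK cells differ from T cells in this was not tested. In plasma cells IR against control was 1.77 [1.07, 2.94] and IR_HSO against control 1.67 [0.987, 2.83], where the second interval included 1. In the cells outside all gates the Hadhb shares were 52.4% in IR_HSO, 52.6% in IR and 34.7% in control. A lower share in control was thus not confined to T cells. A UMI share reflects capture as well as RNA amount, so only its change between libraries is compared.

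The Hadha and Hadhb windows are shown because these genes start head to head, so that 1 stretch of DNA serves as the upstream sequence of both. The Hadhb window is at chr5:30155003-30155302 on the plus strand and the Hadha window at chr5:30154931-30155230 on the minus strand (GRCm38.p6). Capitals mark the 228 bases that both windows hold, read on opposite strands.
Hadhb: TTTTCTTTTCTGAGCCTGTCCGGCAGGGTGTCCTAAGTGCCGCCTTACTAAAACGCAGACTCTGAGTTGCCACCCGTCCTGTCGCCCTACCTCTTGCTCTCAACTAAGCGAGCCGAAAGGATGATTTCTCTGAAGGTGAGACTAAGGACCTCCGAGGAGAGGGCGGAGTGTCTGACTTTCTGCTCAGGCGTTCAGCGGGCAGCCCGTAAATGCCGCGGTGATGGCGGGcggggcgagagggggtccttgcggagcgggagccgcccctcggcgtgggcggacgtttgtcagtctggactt
Hadha: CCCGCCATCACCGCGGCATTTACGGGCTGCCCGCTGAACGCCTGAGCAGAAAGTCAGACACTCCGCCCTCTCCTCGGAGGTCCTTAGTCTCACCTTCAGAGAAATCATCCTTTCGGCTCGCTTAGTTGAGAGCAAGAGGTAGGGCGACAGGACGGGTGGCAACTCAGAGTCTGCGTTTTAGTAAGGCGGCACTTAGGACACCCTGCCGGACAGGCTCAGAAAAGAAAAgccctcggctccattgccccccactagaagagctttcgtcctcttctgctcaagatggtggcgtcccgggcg
GGGCGG matched 4 times in the Hadhb window and 1 time in the Hadha window on either strand, and AGGTCA and CACGTG matched in neither.

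**Figure D5:**
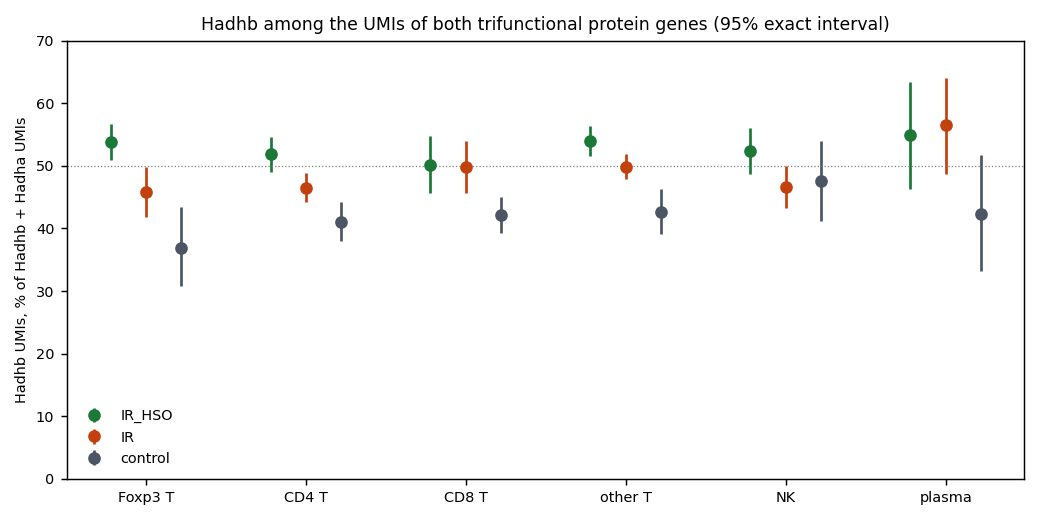
Hadhb UMIs as a percent of Hadhb and Hadha UMIs together in each gate, for IR_HSO, IR and control from left to right; bars are exact 95% binomial intervals and the dotted line marks equal counts. In all T cell subsets control is the lowest, at 36.9% in Foxp3 T cells.

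Ucp2 (ENSMUSG00000033685), the mitochondrial carrier, changed little. In T cells it stood at 309 CPM in IR_HSO, 307 CPM in IR and 258 CPM in control, with ratios of 1.19 [1.15, 1.23] for IR against control, 1.20 [1.16, 1.24] for IR_HSO against control and 1.01 [0.980, 1.04] for IR_HSO against IR. Weighted to the control mix of subsets, the first and second were 1.14 and 1.11. Foxp3 T cells held 339, 331 and 333 CPM, a span within counting error. CD8 T cells held the least of the T cell subsets, at 229, 259 and 209 CPM. There IR was 1.23-fold [1.14, 1.34] over control and IR_HSO against IR was 0.886 [0.800, 0.982].

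By subset the counts of the 9 genes at or past 1.5-fold were small. IR against control gave 4 higher in Foxp3 T cells (background 12.9%), 2 in CD4 (13.7%), 3 of the 8 measured in CD8 (15.8%) and 1 in other T cells (12.9%), with 0 lower in each (backgrounds 10.8%, 4.73%, 5.14% and 5.97%). The 4 in Foxp3 T cells were Cpt1a, Cpt2, Plin2 and Acadvl, and of these the intervals of Cpt1a and Acadvl left out 1. IR_HSO against IR gave 0 higher in the 4 subsets (backgrounds 8.61%, 10.9%, 10.0% and 6.68%). It gave 0 lower in Foxp3, 1 in CD4, 2 in CD8 and 1 in other T cells (backgrounds 6.35%, 7.25%, 8.48% and 5.31%), which were Plin2 each time and Acadl in CD8 T cells. Cpt2 was under the floor of counts in CD8 T cells. IR_HSO against control gave 3, 2, 1 and 2 higher (18.6%, 21.8%, 21.1% and 18.8%) and 0, 0, 1 and 1 lower (12.5%, 6.87%, 6.96% and 7.89%) in the same order, where the lower gene was Plin2.

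In NK cells, of 8 genes at the floor 1 was higher in IR than in control (background 12.5%) and 0 lower (10.8%), and 0 were past 1.5-fold in either direction in IR_HSO against IR (8.20% and 6.81%) or in IR_HSO against control (16.8% and 14.8%). The gene was Plin2, at 19.5 CPM in IR and 10.9 CPM in control, a ratio of 1.79 [1.06, 3.19] on 94 and 17 UMIs. IR_HSO stood between them at 14.6 CPM. Fabp5 was under the floor in NK cells. Hadha was lower in NK cells of IR_HSO than of IR, at 82.6 against 100.1 CPM and a ratio of 0.824 [0.717, 0.947].

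In plasma cells, the secretors of antibody, 6 of 8 genes at the floor were lower in IR than in control and 0 higher, but there 67.9% of all 8504 genes were lower and 4.10% higher, and the median log2 ratio of all genes was -0.88. IR_HSO against control likewise gave 6 lower (background 58.9%) and 0 higher (7.01%), and IR_HSO against IR 0 of 6 in either direction (19.3% higher and 7.78% lower). Ucp2 stood at 78.8 CPM in IR_HSO, 69.0 CPM in IR and 183 CPM in control, and the IR to control ratio was 0.378 [0.311, 0.459]. The pair short of 1.5-fold were Hadhb and Acadvl, which stood at 11.1, 13.0 and 12.9 CPM on 30, 40 and 15 UMIs. Control had only 58 plasma cells, of which 31 were cycling, against 35 of 298 in IR_HSO and 33 of 249 in IR, and median depths were 5041.5, 10803 and 19732 UMIs. The part of these differences in the plasma cell ratios was not tested.

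The neighbours of the 9 genes in the pathway were read from 7 lists of 118 genes in all, 109 of them not among the 9. In T cells 63 of the 109 were at the floor. IR against control gave 9 higher and 0 lower of the 63 with a median log2 ratio of 0.15, IR_HSO against IR gave 3 higher and 3 lower with a median of 0.04, and IR_HSO against control gave 12 higher and 3 lower with a median of 0.23. The medians over all genes were 0.14, 0.04 and 0.18. Over all genes 12.2% were higher and 3.99% lower in the first comparison, 7.71% and 5.38% in the second, and 20.1% and 6.41% in the third. By list, IR against control gave 4 higher of 19 measured genes of mitochondrial beta-oxidation, 2 of 4 of the carnitine shuttle, 2 of 10 of lipid droplets and lipolysis, 3 of 14 of the PPAR list, 1 of 10 of uptake and activation, 0 of 10 of peroxisomal oxidation and 0 of 12 of fuel sensing. The carnitine shuttle counts include Cpt1a and Cpt2 themselves, and the PPAR list count for IR against control includes Cpt1a. In IR_HSO against IR these lists gave 0 of 19, 1 of 5, 0 of 10, 0 of 14, 1 of 9, 0 of 10 and 1 of 12 higher, in the same order, and 4 distinct genes lower over all lists, Plin2 included.

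Of 19 measured beta-oxidation genes, 4 were past 1.5-fold in IR against control and 15 were not, and the genes named next were chosen for the size of their ratios. Acadsb, a dehydrogenase of short branched chains, had 19.6 CPM in IR_HSO, 16.2 CPM in IR and 9.34 CPM in control, at 1.74-fold [1.48, 2.05] for IR and 2.10-fold [1.79, 2.47] for IR_HSO against control. Eci2, an enoyl-CoA isomerase, stood at 36.7 CPM in IR and 21.7 CPM in control, a ratio of 1.69 [1.52, 1.88]. Etfb, which takes electrons from the acyl-CoA dehydrogenases, had 54.8 CPM in IR_HSO, 77.3 CPM in IR and 46.7 CPM in control, with a ratio of 1.65 [1.54, 1.78] for IR against control. From the other lists, Rxra, the partner receptor of the PPARs, was 1.73-fold [1.36, 2.22] higher in IR and 2.19-fold [1.72, 2.80] higher in IR_HSO than in control. Slc22a5, the carnitine importer of the plasma membrane, was 1.60-fold [1.254, 2.06] higher in IR_HSO than in IR, on 158 and 116 UMIs.

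Genes of fat storage and fatty acid activation differed in both directions. G0s2, an inhibitor of the triglyceride lipase, stood at 5.18 CPM in IR_HSO, 11.7 CPM in IR and 12.6 CPM in control T cells. IR_HSO was 0.442 [0.364, 0.535] of IR and 0.410 [0.334, 0.501] of control. Dgat1, which makes triglyceride, was higher, with 19.6 CPM in IR_HSO, 14.3 CPM in IR and 7.52 CPM in control, at 1.90-fold [1.59, 2.28] for IR and 2.61-fold [2.20, 3.12] for IR_HSO against control. Acsbg1, an acyl-CoA synthetase, was 1.66-fold [1.40, 1.98] higher in IR_HSO than in IR, and Acaa1a, a peroxisomal thiolase, was at 0.664 [0.611, 0.722]. Hif1a, the oxygen-sensing transcription factor, stood at 199 CPM in IR_HSO, 119 CPM in IR and 84.5 CPM in control, 1.67-fold [1.60, 1.73] higher in IR_HSO than in IR. Its IR_HSO to control ratio was 2.35 [2.24, 2.48]. Lpl, which frees fatty acids from lipoproteins, had 120, 192 and 2 UMIs in T cells, from 36, 63 and 2 cells with up to 22 UMIs in a cell. In the cells outside all gates Lpl stood at 57.7, 145 and 3.08 CPM, and its part in the T cell counts was not tested.

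Across the 18 sums of 6 gates in 3 libraries, the genes most like each of the 9 in log2 CPM were named from 5958 genes as a description, since these sums share libraries and depth. Plasma cells were the lowest gate for most of the 9 genes in each library, and the part of the plasma cell sums in r was not tested. Cpt1a was most like Paxx (Pearson r 0.97) and next Hadhb (0.96). Hadhb was most like Psmd9 (0.98), Hadha like Smarca5 (0.99), Acadvl like Gfus (0.99), Acadl like Gyg (0.96) and Ucp2 like Pkm (0.98). Fabp5 was most like Snx20 (0.95), Plin2 like Ppp1r11 (0.92) and Cpt2 like Pgrmc1 (0.92).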

How the data were processed

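Cell suspensions of mouse spleen were read in 3 droplet libraries, 1 per group. The deposited files hold raw UMI counts of each gene in each barcode. Per the file headers, the authors' software was Cell Ranger 7.0.1, and GRCm39 is the build that the submitters' processing notes name. The annotation release, the handling of introns and the calling of cells are not given in the sources used here. From these counts, cells were selected and assigned to gates by their own transcripts, UMIs were summed per gate and library, and levels were set per 1000000 UMIs. Totals were 45636807 UMIs in IR_HSO, 50836313 in IR and 47298108 in control. At 10% or more mitochondrial UMIs, 2102, 643 and 357 barcodes were left out, and 88, 123 and 14 cells that met the plasma cell gate and the T or NK cell gate were left out as well. No doublet caller was run, and an alternative left out cells with transcripts of a second lineage, read from the few genes named above. Ratios of summed counts have exact conditional (Clopper-Pearson) intervals at 95%, levels have exact Poisson intervals and shares exact binomial ones. With 1 library per group no test was possible, so there are no p-values. A gene at or over 5 CPM in either library and 10 UMIs in both was counted at 1.5-fold. Shares were also computed after thinning each cell to 1000 UMIs, which leaves out shallower cells. The calculation was checked on simulated Poisson counts with known fold changes. These hold no spread between cells or libraries, so the check covers counting error only.

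The 9 genes and all lists were chosen with earlier results of these data known. All 9 genes are named; from the wider lists, the 6 genes with the largest ratio per comparison are named where they passed 1.5-fold and the interval left out 1, except for 1 gene that is not reported here. In all, 16 alternatives were planned and 2 were added after seeing the data. Promoter sequences are from RefSeq on GRCm38.p6, a build other than that of the counts, and no coordinates were converted. Python 3.11.15, NumPy 2.4.6, SciPy 1.17.1, pandas 2.3.3 and matplotlib 3.10.9 were used.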

Additional observations from a re-analysis of the deposited data

Results flagged for a closer look

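Some genes had ratios whose counting intervals lay on opposite sides of 1 in 2 gates under the same comparison. In each case the difference between the gates was not tested.

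Most of these set plasma cells against another gate. In IR_HSO against control, Cpt1a was 2.19 in CD8 T cells and 0.404 in plasma cells, Fabp5 was 1.40 in CD8 T cells and 0.267 in plasma cells, and Acadl was 1.16 in other T cells and 0.491 in plasma cells. In the same comparison Hadhb was 1.71 in Foxp3 T cells and 0.681 in plasma cells, and Ucp2 was 1.23 in CD4 T cells and 0.431 in plasma cells. In IR against control, Fabp5 was 1.496 in CD4 T cells and 0.0876 in plasma cells, where it rested on 3 and 13 UMIs. Plin2 was 1.79 in NK cells and 0.310 in plasma cells, Acadl was 1.63 in CD8 T cells and 0.481 in plasma cells, and Ucp2 was 1.23 in CD8 T cells and 0.378 in plasma cells. The all-gene median log2 ratio in plasma cells was -0.74 for IR_HSO against control and -0.88 for IR against control. Other cases lay within T cells. Ucp2 in IR_HSO against IR was 1.08 in CD4 T cells and 0.886 in CD8 T cells. Fabp5 in IR against control was 1.496 in CD4 and 0.786 in Foxp3 T cells. In IR_HSO against control Fabp5 was 1.40 in CD8 and 0.712 in Foxp3 T cells. The direction of Fabp5 in Foxp3 T cells depended on how cells were weighted.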

How the results depend on the processing

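No paired analysis was possible because each group is 1 library with no replicate number, and for the same reason no replicate could be left out. Of 2469 ratios of the 9 genes recomputed under the alternatives, 2289 stayed within the counting interval of the reported ratio, 175 lay outside it and 5 changed sign after passing 1.5-fold. Alternatives that left 0 UMIs in a library gave no value. For the number of genes higher in T cells of IR than of control, 2 became 1 when abundant gene classes (mitochondrial, ribosomal, immunoglobulin and pancreatic among them) were left out of the scaling, 1 when ratios were centred on the median of all genes, 1 with a floor of 20 CPM, 7 with a laxer fold threshold and 0 at 2-fold. For IR_HSO against control, 3 higher became 1 with centring, 5 with the laxer threshold and 1 at 2-fold, and 0 lower became 1 with the laxer threshold, 1 after thinning and 1 with subsets weighted as in control. The 1 gene lower in IR_HSO than in IR became 0 with the 20 CPM floor and 0 at 2-fold. The median log2 ratio for IR against control was 0.34 with the reduced scaling, 0.31 with centring and 0.34 with subsets weighted as in control. For IR_HSO against IR the median was 0.072 with the reduced scaling, -0.030 with centring, -0.043 as a mean over cells, -0.039 after thinning and -0.13 with subsets weighted as in control. For IR_HSO against control it was 0.16 with centring, 0.16 with a T cell gate of 1 CD3 UMI and 0.15 with subsets weighted as in control. The sign changed for Cpt1a in plasma cells for IR against control under centring (log2 ratio 0.038). After thinning it changed for Cpt2 in Foxp3 T cells (-0.20 for IR and -0.33 for IR_HSO against control) and for Cpt1a in CD8 T cells (-1.64 and -0.55 in the same order). Thinning left few UMIs in these, and it took 67 of 176 ratios outside the interval, besides the 4 that changed sign. The causes were not tested.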

Other observations

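Cells outside the T, NK, plasma and B cell gates held other parts of the fatty acid handling set. Fabp4, the binding protein of fat cells and macrophages, stood there at 38.3 CPM in IR_HSO, 48.2 CPM in IR and 3.90 CPM in control. Cd36, the fatty acid and lipoprotein scavenger receptor, ran in the other direction, at 1.30 CPM in IR_HSO, 4.29 CPM in IR and 36.4 CPM in control. Fabp5 was also higher in control, at 23.2 CPM in IR_HSO, 28.2 CPM in IR and 121 CPM in control. These cells were 2246 in IR_HSO, 2798 in IR and 1408 in control, and their makeup was not resolved here.

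In B cells of control the Hadhb share of Hadhb and Hadha UMIs was 33.7% [31.7, 35.8], from 711 and 1399 UMIs. The irradiated libraries had 36 B cells in IR_HSO and 76 in IR, too few to set against it, with 8 and 11 Hadhb UMIs.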
